A study of Mus musculus with 6 samples.

Results

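The cell cycle and DNA replication genes examined here are 43 genes chosen by name from the count table of 55401 genes. They cover the proliferation markers, the factors that license and unwind replication origins, the enzymes of nucleotide supply, the cyclins and their kinases and inhibitors, the transcription factors of the cycle, and the kinases and spindle proteins of mitosis. All 43 had enough counts to be tested, among 16784 genes tested. The rule that names them uses no measured value, but the list was chosen with earlier results of these data known.

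The data are RNA-seq counts of whole E10.5 mouse embryos, and the study places all its mouse work on a C57BL/6J background. WT embryos carry the unmodified *Igf2* locus. In their 5C littermates an array of 5 *Mir483* copies lies in tandem at that locus, within the *Igf2* intron where this microRNA is encoded. There were 3 libraries a genotype, each made from 2 pooled embryos. The methods describe the pools as male, but replicate 2 of both genotypes had almost no Y chromosome transcripts. The array was transmitted by chimeric males made from gene-targeted embryonic stem cells of the C57BL/6N strain. The part of strain in the values was not tested. The question here is whether transcripts of proliferating cells differ in 5C embryos, which the study presents as growth restricted. Its embryo weights for 5C were taken at a later stage than these libraries. In whole embryos, fewer cycling cells and less RNA per cycling cell cannot be told apart. Counts relative to library size also do not show the total number of cells in an embryo.

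Cells commit to division in G1, when cyclin D with CDK4 or CDK6, and then cyclin E with CDK2, phosphorylate the retinoblastoma protein and release E2F factors. E2F factors switch on genes for the origin licensing factors, the MCM helicase and nucleotide synthesis, and the MYBL2 and FOXM1 factors then switch on the genes of mitosis. Most cells of a midgestation embryo divide, so these transcripts are abundant, and bulk levels of *Mki67*, *Top2a* and the MCM genes are commonly read as measures of proliferation.

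Promoters are shown for 4 members, a pair of helicase subunit genes and a pair of mitotic genes, because the members of each pair carry the same kinds of motif and had fold changes of opposite sign. The sequences are from RefSeq on GRCm38.p6, from 250 bases before to 50 bases after the annotated start, 5′ to 3′ on the gene's strand. Capitals mark E2F motifs (TTTCCCGC, TTTGGCGC, TTTCGCGC or TTTGCCGC), the cell cycle homology region CHR (TTTGAA or TTCGAA) and CCAAT boxes (CCAAT), each on either strand. In *Mcm5* and in *Mcm6* a capital run holds a pair of overlapping E2F matches on opposite strands.
*Mcm5*, chr8:75109259-75109558, plus strand: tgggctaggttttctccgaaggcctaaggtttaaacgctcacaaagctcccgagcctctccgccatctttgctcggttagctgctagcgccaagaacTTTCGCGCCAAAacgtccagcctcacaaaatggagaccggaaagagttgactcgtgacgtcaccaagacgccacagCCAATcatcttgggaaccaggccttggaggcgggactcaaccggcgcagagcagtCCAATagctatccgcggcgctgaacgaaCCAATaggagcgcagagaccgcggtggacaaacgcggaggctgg
*Mcm6*, chr1:128359656-128359955, minus strand: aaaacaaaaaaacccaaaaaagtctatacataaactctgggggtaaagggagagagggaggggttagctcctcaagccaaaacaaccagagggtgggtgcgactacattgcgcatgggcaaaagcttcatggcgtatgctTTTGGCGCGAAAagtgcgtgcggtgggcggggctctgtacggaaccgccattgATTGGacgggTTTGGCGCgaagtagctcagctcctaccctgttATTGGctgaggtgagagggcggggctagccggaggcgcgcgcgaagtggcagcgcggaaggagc
*Cdc20*, chr4:118437294-118437593, minus strand: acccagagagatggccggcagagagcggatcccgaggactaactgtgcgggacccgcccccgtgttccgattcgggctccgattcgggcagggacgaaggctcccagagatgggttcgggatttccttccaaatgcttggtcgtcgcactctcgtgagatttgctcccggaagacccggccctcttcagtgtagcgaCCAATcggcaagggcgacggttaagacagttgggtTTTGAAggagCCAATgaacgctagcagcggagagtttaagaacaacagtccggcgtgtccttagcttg
*Bub1*, chr2:127831810-127832109, minus strand: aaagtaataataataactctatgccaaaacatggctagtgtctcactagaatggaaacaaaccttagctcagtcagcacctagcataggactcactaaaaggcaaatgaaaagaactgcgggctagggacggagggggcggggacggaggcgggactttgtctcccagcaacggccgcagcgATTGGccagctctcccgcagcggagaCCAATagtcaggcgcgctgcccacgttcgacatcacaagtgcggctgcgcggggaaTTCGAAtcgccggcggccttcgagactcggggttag

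Promoters were matched for 35 of the 43 members. Of the 16 matched members that act in G1/S and S phase, 7 held an E2F motif, 2 a CHR and 10 a CCAAT box. Of the 14 matched G2/M members, 1 held an E2F motif, 11 a CHR and 13 a CCAAT box, and of the 5 matched G1 regulators 3 held a CCAAT box and none of these windows held an E2F motif or a CHR. Over all 32851 promoter windows of the same length the shares were 2.27% for E2F, 19.2% for CHR and 37.4% for CCAAT. These shares are by window, whereas the 35 members, with 38 windows, were counted by gene with a match in any window. A match is a description of the letters in the window and not a measured site.

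The mature products of the overexpressed gene are shown because their seed, bases 2 to 8 and in capitals, is the stretch by which a microRNA pairs with its targets. Both lie on the minus strand of chromosome 7 and are given 5′ to 3′ from RefSeq.
miR-483-3p: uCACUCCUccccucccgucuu
miR-483-5p: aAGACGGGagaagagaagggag

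In the 3′ UTR of the longest coding transcript, 3 of the 43 members held a miR-483-3p seed match (6.98%), against 1729 of 13886 tested genes (12.5%). For miR-483-5p, 1 member held a match (2.33%), against 478 genes (3.44%). The median 3′ UTR was 907 bases long among the members and 1200 bases among all tested genes. A match describes the letters of the 3′ UTR and is not a measured site. The matches are given from the GENCODE transcripts on GRCm38, in capitals with their flanking bases.
*Cdkn1b*, miR-483-3p: acgtttgattAGGAGTGtgaatagagc
*Tyms*, miR-483-3p: ttttatattcAGGAGTGctctaaacac
*Cdk6*, miR-483-3p: aatacatttaAGGAGTGagtgtacctc
*Ccnd2*, miR-483-5p: ggattgaatcCCCGTCTatgtttttct

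Libraries held between 6357343 (WT replicate 3) and 19151368 counts (WT replicate 1), and the smallest count of any member in any library was 36. *Mir483* measured 0.577, 0.429 and 0.319 CPM (counts relative to library size after scaling by trimmed mean of M values) in WT. In 5C it measured 5.15, 4.35 and 2.56 CPM, so the genotypes did not overlap. These were 11, 5 and 2 counts in WT, the last below the detection floor of 3 counts, and 85, 51 and 36 counts in 5C. The log2 fold change of *Mir483* was 3.05 with an adjusted p of 0.169 by edgeR's quasi-likelihood test. *Igf2*, its host gene, shares 3596 of its 5723 exon bases with another annotated gene on its own strand, so its counts cannot be read as its full level. It measured 16.9, 8.41 and 17.1 CPM across WT libraries, against 10.48, 10.1 and 9.75 CPM across 5C libraries, so the groups overlapped through WT replicate 2, and its log2 fold change was -0.48 ± 0.24 (adjusted p = 0.781). The study lists *Igf2* among the downregulated genes of 5C embryos in its own RNA-seq analysis, whereas it was not called here. Markers of the neural, cardiac, mesenchymal and erythroid cells of an embryo were detected in every library. Some libraries stood apart. The summed level of 10 visceral endoderm and yolk sac markers was 6178 CPM in WT replicate 1, against 154 to 1219 CPM in the others, and *Tbx4*, a hindlimb factor, was 398.5 CPM in WT replicate 3. *Ddx3y*, *Eif2s3y*, *Kdm5d* and *Uty* are transcripts of the Y chromosome. They had 10 to 16 counts each in WT replicate 2 and 0 or 1 in 5C replicate 2, against 275 to 1118 elsewhere. *Xist* lay between 495 and 914 CPM in all 6 libraries. The pools are described as male, which the Y transcripts of replicate 2 of both genotypes do not bear out. Primitive erythroid markers summed to 8347 to 16255 CPM and decidual killer cell markers to 1.10 to 27.5 CPM. The highest of the latter sums was in 5C replicate 3. Of the 4 such markers tested, 3 were higher in 5C at an unadjusted p under 0.05, where 2.55% of all genes were. The counts of members are also given below without each of the libraries that stood apart.

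No cell cycle gene was called between the genotypes. At an adjusted p under 0.05, 0 of the 43 members were called, where 0 of all 16784 genes tested were called (0%), by edgeR's quasi-likelihood test. DESeq2 called 19 genes and limma-voom 0 over the whole table, with 0 members among them, and the smallest adjusted p of a member was 0.781. At an unadjusted p under 0.05, 4 members were lower in 5C, where 3.47% of all genes were lower, and 0 were higher, where 2.55% were higher. The 4 were *Cdc20*, *Mcm5*, *Ccne1* and *Ccnd2*.

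Fold changes of the members were small and closely bounded. Of the 43, 23 had a fold change below 1 and 20 above, and the median was -0.005 (log2), against -0.0024 over all genes tested. They ranged from -0.23 for *Mcm5* to 0.19 for *Ccne2*. The 95% interval lay within 1.5-fold in either direction for all 43 members, as it did for 67.6% of all genes tested. The interval that reached lowest was that of *Mcm5*, down to -26.5%, and the one that reached highest was that of *Ccne2*, up to 33.1%. The members were abundant, with a median level of 130 CPM against 20.1 CPM over all genes tested, and their median standard error of 0.074 (log2) stood against 0.126 over all genes.

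**Figure D1:**
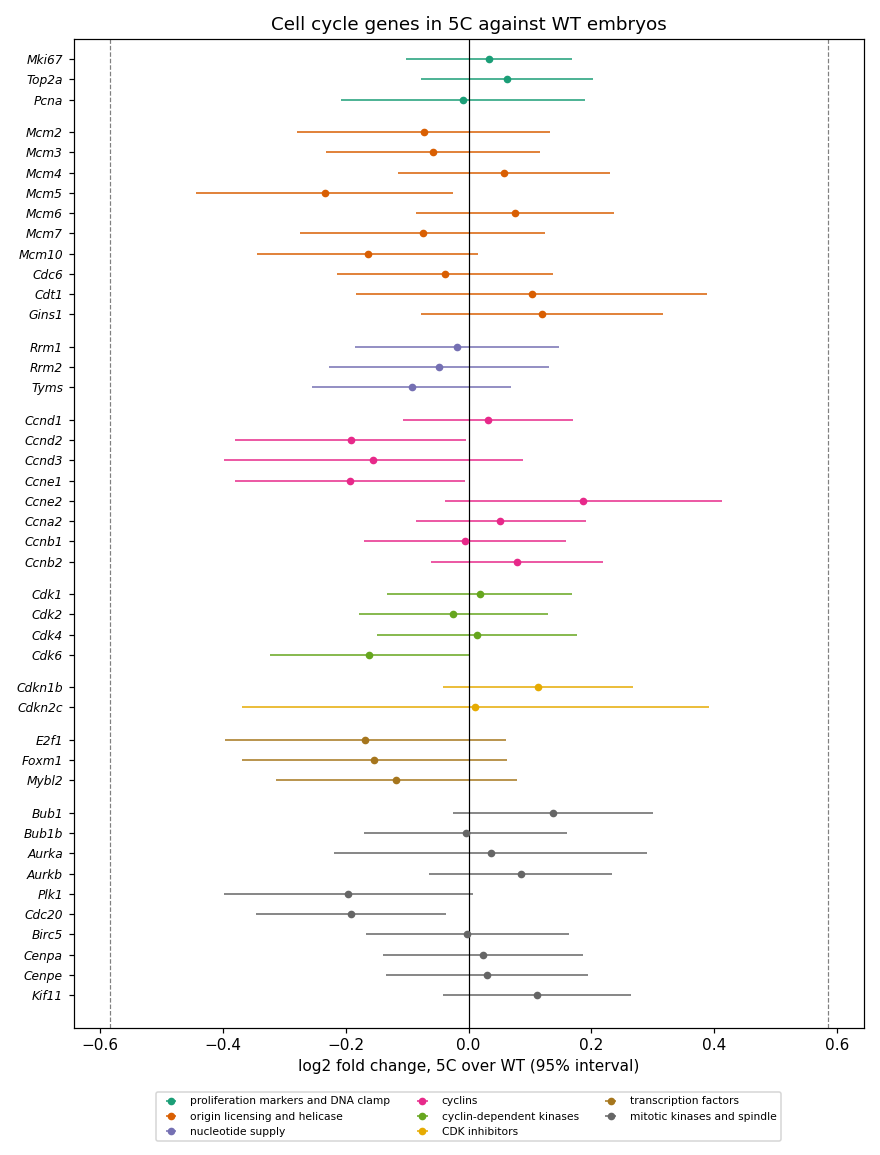
Fold change of each of the 43 cell cycle genes in 5C over WT embryos, on a log2 scale, with bars for the 95% interval of edgeR's quasi-likelihood fit and colours for the gene's role. Dashed lines mark a 1.5-fold difference (0.585), and the bars of all 43 genes lie between them.

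Summed over the 43 members, transcripts of the cycle took 12401, 13609 and 12828 CPM across WT libraries, against 12932, 12842 and 12943 CPM across 5C libraries. On average this was 12946 ± 612.9 and 12906 ± 55.6 CPM (SD, n = 3), a difference of -0.314%. The 5C sums lay inside the range of the WT sums. The members' reads were 1.23% to 1.35% of a library. Non-overlap between the groups was found for 5 members that were lower in 5C (*Ccnd2*, *Ccne1*, *Cdk6*, *Plk1* and *Cdc20*), where 5.1% of all genes were, and for 1 that was higher (*Kif11*), where 6.26% were.

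Libraries of 1 genotype differed among themselves. The members' median log2 deviation from the mean of the 6 libraries was -0.06, 0.08 and -0.03 in WT and -0.004, -0.02 and -0.01 in 5C. WT replicate 2 lay above the mean of the 6 libraries for 34 of the 43 members, and WT replicate 1 lay below it for 28. The 5C libraries were above it for 20, 19 and 20 members. When WT replicate 2 was left out, the members had a median log2 fold change of 0.05, and the members at an unadjusted p under 0.05 numbered 3 lower (*Cdk6*, *Plk1* and *Cdc20*), where 7.03% of all genes in that fit were lower, and 3 higher (*Gins1*, *Ccne2* and *Bub1*), where 3.34% were higher. Without WT replicate 3 they numbered 3 lower (*Ccne1*, *Cdc20* and *Mcm10*), against 3.2% of all genes, and 0 higher, against 1.92%. Without 5C replicate 1 they numbered 4 lower (*Mcm5*, *Cdc20*, *E2f1* and *Cdk6*), against 4.4% of all genes, and 2 higher (*Ccne2* and *Bub1*), against 4.26%. Without 5C replicate 2 they numbered 2 lower (*Foxm1* and *Cdc20*), against 1.68%, and 0 higher, against 0.937%. Without 5C replicate 3 only *Ccne1* was found, lower in 5C, against 2.88% of all genes lower and 1.61% higher. Without replicate 2 of both genotypes they numbered 2 lower (*Foxm1* and *Plk1*), against 3.98% of all genes, and 0 higher, against 1.13%, and the median was 0.03. Of the 4 members of the full comparison, *Ccne1* and *Cdc20* were thus among those found without WT replicate 3, and none of the 4 was among those found without replicate 2 of both genotypes.

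**Figure D2:**
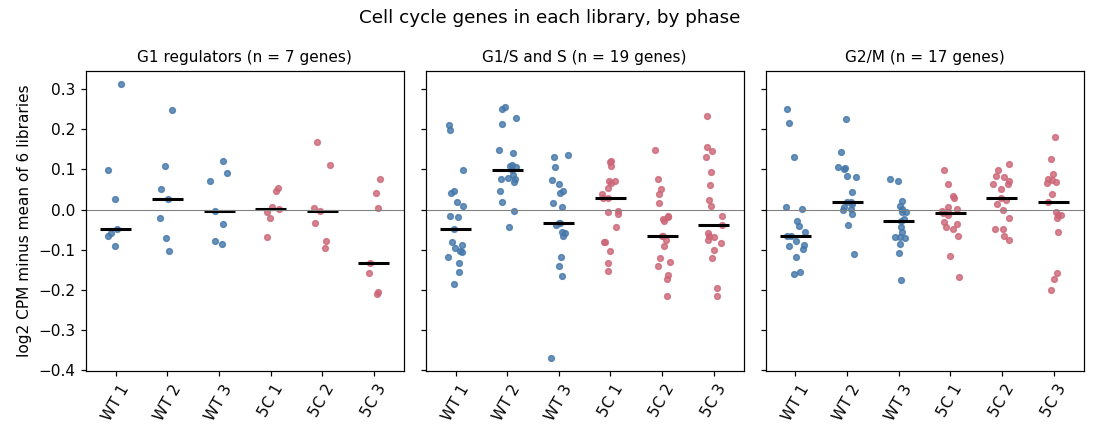
Log2 CPM of each cell cycle gene minus its mean over the 6 libraries, for the 7 G1 regulators, 19 G1/S and S genes and 17 G2/M genes. Points are genes, black bars are medians, WT libraries are blue and 5C libraries red, and the G1/S and S median stands at 0.099 in WT replicate 2.

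The genes most used as proliferation markers were close between the genotypes. *Mki67*, which encodes the Ki-67 antigen of dividing cells, measured 1338, 1390 and 1399 CPM across WT libraries, against 1398, 1415 and 1411 CPM across 5C libraries. WT replicate 3 lay inside the 5C range and the other WT libraries just below it, and the log2 fold change was 0.03 ± 0.06 (SE, 95% interval -0.10 to 0.17). *Top2a*, the topoisomerase that untangles replicated DNA, measured 1727, 1840 and 1833 CPM across WT libraries, against 1830, 1920 and 1888 CPM across 5C libraries, and its log2 fold change was 0.06 ± 0.06 (95% interval -0.08 to 0.20). For *Mki67* the 95% interval ran from -6.84% to 12.4%, and for *Top2a* from -5.26% to 15.1%. *Pcna*, the sliding clamp of DNA polymerase, had a log2 fold change of -0.01 ± 0.09.

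The minichromosome maintenance (MCM) genes encode the hexameric helicase that is loaded at origins in G1 and opens them in S phase. *Mcm5* (ENSMUSG00000005410, chr8:75109569-75128439, plus strand) had the lowest fold change of all 43 members. It measured 402, 463 and 438 CPM across WT libraries, against 419.6, 344 and 344 CPM across 5C libraries. 5C replicates 2 and 3 lay below every WT library, and 5C replicate 1 lay inside the WT range. The log2 fold change was -0.23 ± 0.09 (95% interval -0.44 to -0.025, adjusted p = 0.781). Without replicate 2 of both genotypes, the libraries nearly without Y transcripts, it was -0.14 and no longer at an unadjusted p under 0.05, in a smaller fit of 2 libraries against 2. With single libraries left out it ranged from -0.336, without 5C replicate 1, to -0.184, without WT replicate 2. It was at an unadjusted p under 0.05 without WT replicate 1 or 5C replicate 1, and not without any of the other 4.

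The other helicase subunits did not share a direction. *Mcm2*, *Mcm3* and *Mcm7* had log2 fold changes of -0.07, -0.06 and -0.07, whereas *Mcm4* and *Mcm6* had 0.06 and 0.08, with none of these at an unadjusted p under 0.05. *Mcm6* measured 525.5, 598 and 545 CPM across WT libraries, against 586, 563 and 608 CPM across 5C libraries, and its groups overlapped. Grouped after the values were seen, *Mcm2*, *Mcm3*, *Mcm5* and *Mcm7* had similar profiles across libraries. Their median log2 deviation from the mean of the 6 libraries was -0.07, 0.10 and 0.12 in WT and 0.11, -0.17 and -0.07 in 5C, so 5C replicate 1 resembled WT replicates 2 and 3. Without replicate 2 of both genotypes, *Mcm2*, *Mcm3* and *Mcm7* had log2 fold changes of 0.03, 0.015 and 0.002.

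The ratio of *Mcm5* to *Mcm6* reads, which no library scaling can alter, was 0.765, 0.774 and 0.805 in WT and 0.716, 0.611 and 0.565 in 5C. The ratio was lower in every 5C library than in every WT library. It was picked after the values were seen and received no test. The median GC content of the 4 subunit genes with the lower fold changes was 52.2%, and that of *Mcm4* and *Mcm6* 46.4%. GC content also went with fold change over all genes. With offsets for GC content in each library, the log2 fold changes of *Mcm5* and *Mcm6* were -0.18 and 0.09, against -0.23 and 0.08 without them. The part of GC content in this ratio was not tested.

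**Figure D3:**
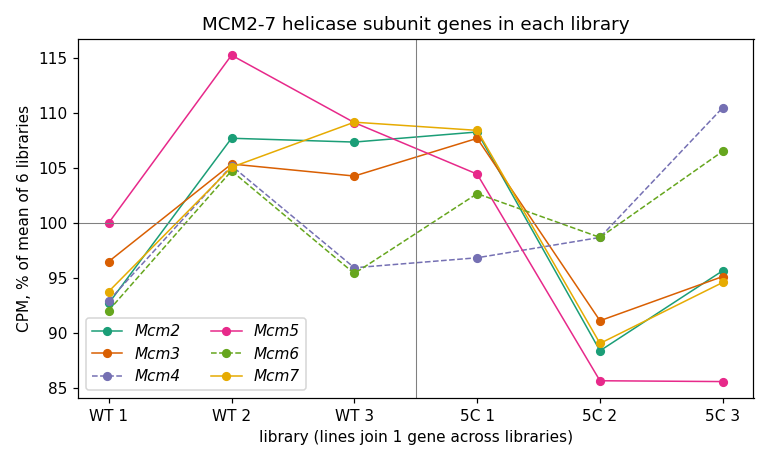
CPM of the 6 MCM helicase subunit genes in each library, as a percentage of each gene's mean over the 6 libraries, with lines joining 1 gene. Solid lines are *Mcm2*, *Mcm3*, *Mcm5* and *Mcm7*, which lie below their means in 5C replicates 2 and 3, and dashed lines are *Mcm4* and *Mcm6*.

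Among the factors that act around the helicase, *Mcm10*, which helps to activate it at origins, measured 121, 137 and 114.5 CPM across WT libraries, against 111, 106 and 116 CPM across 5C libraries. The groups overlapped, and the log2 fold change was -0.16 ± 0.08 (95% interval -0.34 to 0.02). *Cdc6* and *Cdt1*, which load the helicase, had log2 fold changes of -0.04 ± 0.08 and 0.10 ± 0.13. *Gins1*, a subunit of the active helicase, had 0.12 ± 0.09. *Cdt1* was 43.9 CPM in WT replicate 3 and 55.0 to 65.6 CPM in the other 5 libraries, and without that WT library its log2 fold change was -0.03. Over the 10 licensing and helicase genes, 6 fold changes lay below 1 and 4 above.

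The genes of nucleotide supply all had fold changes just below 1. *Tyms*, the thymidylate synthase that makes the DNA base precursor dTMP, measured 113, 121 and 105 CPM across WT libraries, against 109, 107 and 102 CPM across 5C libraries. Its log2 fold change was -0.09 ± 0.07 (95% interval -0.255 to 0.07), and its 3′ UTR holds a miR-483-3p seed match. *Rrm2*, the regulatory subunit of ribonucleotide reductase, measured 258, 256 and 222 CPM across WT libraries, against 219.5, 247 and 245 CPM across 5C libraries, with a log2 fold change of -0.05 ± 0.08 (95% interval -0.23 to 0.13). The groups overlapped for both genes. *Rrm1*, the catalytic subunit, had a log2 fold change of -0.02 ± 0.07.

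Among the cyclins, which activate the cyclin-dependent kinases, *Ccnd2* and *Ccne1* did not overlap between the groups. *Ccnd2* (ENSMUSG00000000184, chr6:127125162-127152193, minus strand), the D-type cyclin with the highest level per exon length here, measured 858, 1060 and 950.2 CPM across WT libraries, against 851, 845 and 814 CPM across 5C libraries. WT replicate 1 stood just above the nearest 5C library, and WT replicate 2 was the highest of the 6. The log2 fold change was -0.19 ± 0.08 (95% interval -0.38 to -0.005, adjusted p = 0.781). Without WT replicate 2 it was -0.11 and without WT replicate 1 -0.26, and of the fits without 1 library only the latter had an unadjusted p under 0.05. Its 3′ UTR holds the only miR-483-5p seed match among the members.

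*Ccne1* (ENSMUSG00000002068, chr7:38097984-38107534, minus strand) encodes cyclin E1, the partner of CDK2 at S phase entry. It measured 91.0, 107 and 90.3 CPM across WT libraries, against 80.7, 84.35 and 87.5 CPM across 5C libraries, so all 5C libraries lay below all WT libraries. The log2 fold change was -0.19 ± 0.08 (95% interval -0.38 to -0.006, adjusted p = 0.781). It, too, was -0.11 without WT replicate 2. It was at an unadjusted p under 0.05 without WT replicate 1, WT replicate 3 or 5C replicate 3, and not without any of the other 3 libraries.

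*Ccne2*, the gene for the other E-type cyclin, differed in the opposite direction. It measured 83.5, 98.1 and 86.15 CPM across WT libraries, against 88.35, 105 and 112 CPM across 5C libraries. The groups overlapped, and the log2 fold change was 0.19 ± 0.10 (95% interval -0.04 to 0.41). The ratio of *Ccne1* to *Ccne2* reads was 1.09, 1.09 and 1.05 in WT and 0.914, 0.802 and 0.784 in 5C. *Ccne1* had more reads than *Ccne2* in every WT library and fewer in every 5C library. This ratio was also picked after the values were seen and received no test. The transcripts differ in GC content, 52.7% for *Ccne1* and 36.3% for *Ccne2*, and with offsets for GC content in each library the log2 fold changes were -0.14 and 0.08.

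None of the other cyclin genes was at an unadjusted p under 0.05. *Ccnd1* and *Ccnd3*, the remaining D-type cyclins, had log2 fold changes of 0.03 ± 0.06 and -0.16 ± 0.11. *Ccna2*, the cyclin of S phase and G2, had 0.05 ± 0.06. *Ccnb1* and *Ccnb2*, the cyclins that drive entry into mitosis, had -0.01 ± 0.07 and 0.08 ± 0.06. Exons of *Ccnd2*, *Ccnd1*, *Ccne2* and *Ccna2* overlap those of genes on the opposite strand by 740, 1100, 609 and 510 bases. Which strand setting was counted is not given in the sources used here, so reads there could come from either gene. The same holds for 641 bases of *Cdk4*, 385 of *Mcm7*, 368 of *Cdk6*, 361 of *Ccnd3*, 156 of *Plk1*, 53 of *Cdc20* and 34 of *Cdk2*. *Mcm7*, *Foxm1* and *Top2a* share 172, 144 and 122 exon bases with a gene on their own strand, where counting by gene is uncertain.

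*Cdk4*, the G1 kinase, had the highest level per exon length of the 43 members in WT, 275 CPM per kb, and *Cdk6*, its partner in function, one of the lowest, 5.25 CPM per kb. *Cdk6* measured 74.3, 70.7 and 75.5 CPM across WT libraries, against 69.7, 65.0 and 62.2 CPM across 5C libraries. The groups came close without overlapping, and the log2 fold change was -0.16 ± 0.07 (95% interval -20.1% to 0.019%). Its long 3′ UTR of 10217 bases holds a miR-483-3p seed match. *Cdk2*, the S phase kinase, measured 119, 122 and 124 CPM across WT libraries, against 123, 125 and 111 CPM across 5C libraries, with a log2 fold change of -0.02 ± 0.07 (95% interval -0.18 to 0.13). *Cdk4* and *Cdk1*, the mitotic kinase, had log2 fold changes of 0.01 ± 0.07 and 0.02 ± 0.07.

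Of the CDK inhibitors, *Cdkn1b*, the gene for p27, measured 70.2, 71.1 and 74.5 CPM across WT libraries, against 73.7, 80.7 and 78.8 CPM across 5C libraries. Its groups overlapped through 5C replicate 1, and its log2 fold change was 0.11 ± 0.07 (95% interval -0.04 to 0.27). It too holds a miR-483-3p seed match, so of the 4 members with a seed match to either microRNA, 3 had a fold change below 1 and *Cdkn1b* one above. Of all 43 members 23 lay below 1, and of all 16784 genes tested 8503 did. *Cdkn2c*, the gene for p18, was the member with the fewest reads, 4.70 to 6.15 CPM, and had a log2 fold change of 0.01 ± 0.17.

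The transcription factors of the cycle all had fold changes below 1, and none was at an unadjusted p under 0.05 with all 6 libraries. *E2f1*, which drives S phase genes, measured 45.3, 54.6 and 46.4 CPM across WT libraries, against 48.0, 42.2 and 40.0 CPM across 5C libraries. Its log2 fold change was -0.17 ± 0.10 (95% interval -0.40 to 0.06). It was -0.25, at an unadjusted p under 0.05, without 5C replicate 1, and -0.077 without WT replicate 2. *Foxm1*, which drives mitotic genes, measured 91.0, 77.7 and 79.45 CPM across WT libraries, against 69.75, 83.8 and 70.2 CPM across 5C libraries, with a log2 fold change of -0.15 ± 0.10 (95% interval -0.37 to 0.06). The groups overlapped for both. With replicate 2 of both genotypes left out, the log2 fold change of *Foxm1* was -0.29, at an unadjusted p under 0.05. *Mybl2*, the third factor, had -0.12 ± 0.09.

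*Cdc20* and *Plk1* stood lowest among the mitotic genes. *Cdc20* (ENSMUSG00000006398, chr4:118432901-118437352, minus strand), the activator of the anaphase-promoting complex, measured 127, 123 and 122 CPM across WT libraries, against 115, 110.1 and 101 CPM across 5C libraries. Every 5C library lay below every WT library. The log2 fold change was -0.19 ± 0.07 (95% interval -0.35 to -0.04, adjusted p = 0.781), the smallest p of the 43 members. It was -0.21 without replicate 2 of both genotypes and -0.12 with GC content offsets, in neither case at an unadjusted p under 0.05. Nor was it without WT replicate 1, at -0.17, or without 5C replicate 3, at -0.14, whereas it was without any of the other 4 libraries.

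*Plk1*, the Polo-like kinase of mitotic entry, measured 62.0, 50.7 and 54.7 CPM across WT libraries, against 50.5, 49.8 and 46.2 CPM across 5C libraries. The groups nearly touched without overlapping, and the log2 fold change was -0.20 ± 0.09 (95% interval -0.40 to 0.007). Without replicate 2 of both genotypes it was -0.28, at an unadjusted p under 0.05.

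The other mitotic genes had intervals that included 0. *Bub1*, a kinase of the spindle checkpoint, measured 244, 276 and 259.7 CPM across WT libraries, against 266, 295 and 297 CPM across 5C libraries, with a log2 fold change of 0.14 ± 0.07 (95% interval -0.025 to 0.30). *Kif11*, the motor that separates the spindle poles, measured 402.5, 456 and 441 CPM across WT libraries, against 460.1, 472 and 471 CPM across 5C libraries, all 5C libraries above all WT libraries, with a log2 fold change of 0.11 ± 0.07 (95% interval -0.04 to 0.26). The Aurora kinase genes *Aurka* and *Aurkb* had log2 fold changes of 0.04 ± 0.11 and 0.09 ± 0.07. *Bub1b* and *Birc5*, of the spindle checkpoint and the chromosomal passenger complex, had -0.005 ± 0.07 and -0.002 ± 0.07. The centromere genes *Cenpa* and *Cenpe* had 0.02 ± 0.07 and 0.03 ± 0.07.

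**Figure D4:**
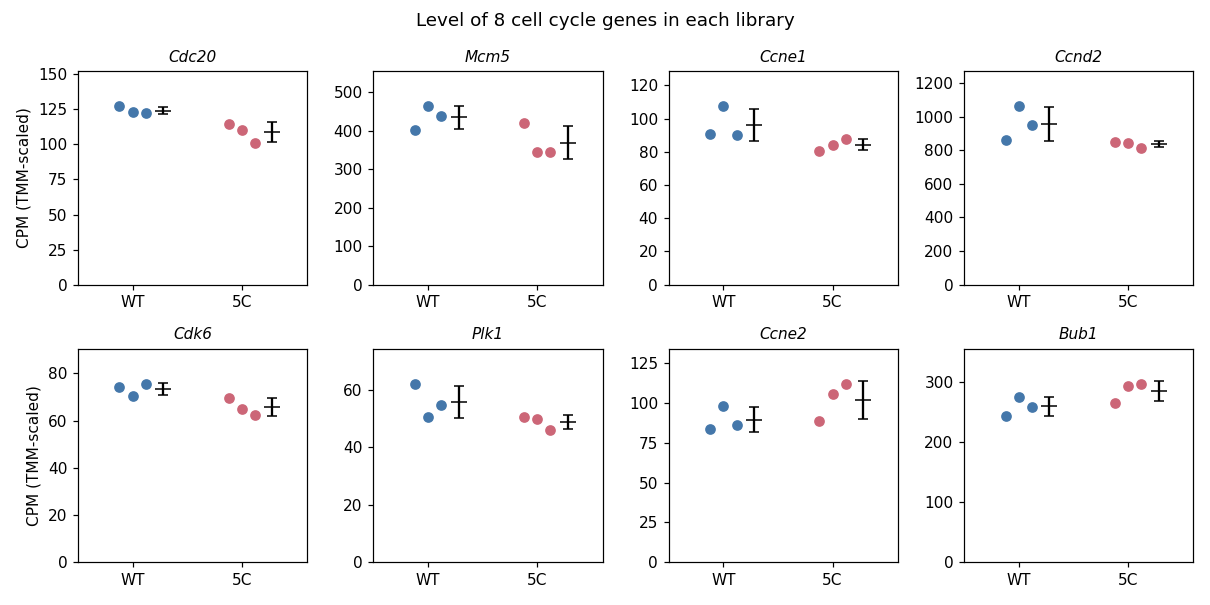
CPM, scaled by trimmed mean of M values, of 8 cell cycle genes in each of the 3 WT (blue) and 3 5C (red) libraries, with the mean and SD of each group in black and axes from 0. The 5C points of *Cdc20*, *Ccne1*, *Ccnd2*, *Cdk6* and *Plk1* lie below the WT points, and those of *Mcm5*, *Ccne2* and *Bub1* overlap them.

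By phase, the G1/S and S genes had 14 fold changes below 1 and 5 above, the median being -0.05 on the log2 scale. Over all genes tested, 8503 lay below 1 and 8281 above. The median log2 deviation of the G1/S and S genes from the mean of the 6 libraries was -0.05, 0.10 and -0.03 in WT. In 5C it was 0.03, -0.07 and -0.04, so WT replicate 2 stood highest. The G2/M genes had 6 below and 11 above, with a median of 0.03, and the G1 regulators had 3 below and 4 above, with a median of 0.01. The summed level of the G1/S and S genes was 4217 ± 250.9 CPM across WT libraries, against 4105 ± 129 CPM across 5C libraries, and that of the G2/M genes 6279 ± 207 and 6466 ± 114 CPM (SD, n = 3). Both differences were smaller than the SD of the WT libraries.

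Transcript GC content went with fold change among the members and among all genes. Spearman's rho between the GC content of the longest transcript and the log2 fold change was -0.49 over the 43 members and -0.31 over 16770 tested genes. Genes share the same 6 libraries and are not independent replicates. The 14 members with the lowest GC content, up to 46.6%, had 9 fold changes above 1 and 5 below, and the 14 with the highest, from 51.9%, had 4 above and 10 below. With an offset for GC content fitted in each library, rho over the members was -0.14, and the median log2 fold changes of these groups went from 0.04 and -0.14 to 0.03 and -0.06.

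With the GC content offsets, *Cdc20*, *Mcm5*, *Ccne1* and *Ccnd2* had log2 fold changes of -0.12, -0.18, -0.14 and -0.18, and none was then at an unadjusted p under 0.05. *Cdk6*, at a log2 fold change of -0.17, and *Aurkb*, at 0.14, were, where 2.41% of all genes in that fit were lower and 2.4% higher. The smallest adjusted p of any member in that fit was 0.921 by edgeR's quasi-likelihood test.

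**Figure D5:**
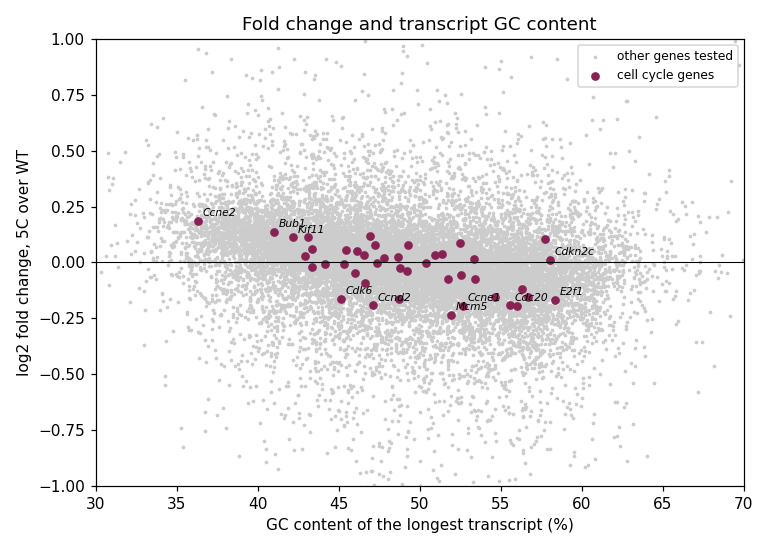
Log2 fold change in 5C over WT against the GC content of the longest transcript, for the 43 cell cycle genes (purple) and the other genes tested (grey), with the axes limited to 30% to 70% GC and to log2 fold changes between -1 and 1. *Ccne2* and *Bub1*, at 36.3% and 41.0% GC, lie above 0, and *Cdc20*, at 55.6%, lies below.

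A wider list of 129 replication and mitosis genes, none of them members, was set beside these. Of the 127 tested, 54 had fold changes below 1 and 73 above, with a median log2 fold change of 0.01, and 0 were called at an adjusted p under 0.05 by edgeR, DESeq2 or limma-voom. At an unadjusted p under 0.05, 2 were lower (*Ticrr* and *Incenp*), where 3.47% of all genes were lower, and 6 were higher, where 2.55% were higher, among them *Rb1*, *Orc4*, *Nuf2* and *Nusap1*. The remaining 2 of the 129, *Cdkn2a* and *Cdkn2b*, were not tested because their counts were too low.

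*Rb1*, the gene for the retinoblastoma protein that holds E2F factors in check, had the smallest p of the wider list. It measured 52.05, 54.4 and 55.8 CPM across WT libraries, against 63.4, 69.8 and 63.3 CPM across 5C libraries. Every 5C library lay above every WT library, and the log2 fold change was 0.28 ± 0.07 (95% interval 0.11 to 0.44, adjusted p = 0.781). It stayed at an unadjusted p under 0.05 with GC content offsets. Of its 6015 exon bases, 896 overlap exons of genes on the opposite strand, where reads could come from those genes. Its relative *Rbl1*, for the pocket protein p107, had a log2 fold change of 0.15 ± 0.08 (95% interval -0.02 to 0.32), and *E2f8*, an E2F repressor, had -0.31 ± 0.14 (95% interval -0.63 to 0.015).

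Other licensing factors had 8 fold changes below 1 and 10 above. *Orc4*, a subunit of the origin recognition complex, had a log2 fold change of 0.18 ± 0.08 (95% interval 0.004 to 0.35), *Ticrr*, which helps to fire origins, -0.19 ± 0.08 (95% interval -0.37 to -0.003), and *Dbf4*, the activator of the CDC7 kinase, 0.12 ± 0.07 (95% interval -0.02 to 0.27). The enzymes of the replication fork had 15 below and 11 above, with none at an unadjusted p under 0.05. Of these *Uhrf1*, which keeps DNA methylation through replication, had -0.22 ± 0.10 (95% interval -0.45 to 0.02).

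Other mitosis genes had 16 fold changes below 1 and 39 above, with a median log2 fold change of 0.03, and their median GC content was 45.3%, against 49.0% over all genes tested. *Nuf2*, of the kinetochore, had a log2 fold change of 0.20 ± 0.07 (95% interval 0.04 to 0.36), and *Nusap1*, of the spindle, 0.17 ± 0.06 (95% interval 0.03 to 0.30). *Incenp*, the scaffold of the chromosomal passenger complex, had -0.18 ± 0.06 (95% interval -0.31 to -0.05). The CDK inhibitors and phosphatases outside the 43 had 9 below and 3 above. *Cks2*, a small subunit of CDK complexes, had the smallest p of these. It had 16 to 35 counts a library, or 1.78, 3.005 and 2.55 CPM across WT libraries, against 1.88, 1.45 and 1.495 CPM across 5C libraries, so the groups overlapped, and its log2 fold change was -0.56 ± 0.27 (95% interval -1.16 to 0.04). *Cdc25a*, the phosphatase that frees CDK2, had -0.13 ± 0.06 (95% interval -0.27 to 0.02).

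Markers of cell types that could shift the mixture were measured beside the members. All 10 visceral endoderm and yolk sac markers had fold changes below 1, with sums of 6178, 209 and 463.5 CPM across WT libraries, against 154, 163.5 and 1219 CPM across 5C libraries. Without WT replicate 1, the library with the highest sum, 3 members were at an unadjusted p under 0.05 and lower in 5C (*Mcm5*, *Ccne1* and *Ccnd2*), against 2.61% of all genes, and 1 was higher (*Cdt1*), against 2.02%. Of 9 markers of postmitotic neurons, which have left the cycle, 8 had fold changes above 1. Of these, 3 had an unadjusted p under 0.05, where 2.55% of all genes were higher in the full comparison. The neuron sums were 951 ± 45.0 CPM across WT libraries, against 1025 ± 79.6 CPM across 5C libraries (SD, n = 3). All 6 cardiomyocyte markers had fold changes below 1, 3 of them at an unadjusted p under 0.05, where 3.47% of all genes were lower. Their sums were 449, 588 and 467 CPM across WT libraries, against 401, 381 and 414 CPM across 5C libraries. Of 5 neural progenitor markers, 4 had fold changes above 1. *Sox2* was at an unadjusted p under 0.05, with a log2 fold change of 0.25 ± 0.08, and *Sox2* and *Pax6* were higher in every 5C library than in every WT library. The sums, of which *Nes* made up the largest share, were 696 ± 35.2 and 697 ± 48.2 CPM (SD, n = 3). The part of these mixtures in the members' values was not tested.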

How the data were processed

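Stranded libraries of poly(A) RNA were sequenced single-end by the authors, who used STAR (GRCm38, Ensembl genes) both to align and to count. The deposited values are the raw counts per gene, 1 column per library. These counts were used as deposited. Groups and replicate numbers were taken from the sample titles. A count of 3, taken as the detection floor, was worth 0.157 to 0.472 CPM depending on depth, for counting error only. All pairs of libraries differed by more than sampling noise.

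Low counts were removed with filterByExpr, TMM scaling (trimmed mean of M values) was applied, and 5C was compared with WT in edgeR 4.0.16 under R 4.3.3, using legacy quasi-likelihood F-tests. Two-sided p-values received a Benjamini-Hochberg adjustment across the 16784 genes tested. The ± beside a log2 fold change is its standard error, and CPM values, here and in figures, are scaled by TMM. The labels do not say that the libraries came from separate litters, so p-values measure the spread between these pools. Symbols, transcript GC content and 3′ UTRs came from GENCODE M21 on GRCm38, in which 55141 of the 55401 identifiers were found, and promoters and microRNAs from RefSeq tables of GRCm38.p6.

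The 43 members, the other gene lists and the tests were chosen with earlier results of these data known. Library values are given for the members at an unadjusted p under 0.05 and for those with the smallest p in each role, and other members described in full were picked after their values were seen. At most 3 genes of each part of the wider list were named by the same rule. Alternatives were other scalings and count filters, DESeq2 1.42.0, limma-voom (limma 3.58.1), the replicate number as a block, GC content offsets (a natural spline in each library), and each library left out in turn. Leaving out replicate 2 of both genotypes together was added after the data were seen.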

Additional observations from a re-analysis of the deposited data

How the results depend on the processing

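No cell cycle gene, of the 43 or of the wider list, was called at an adjusted p under 0.05 under any of the 9 other settings or with libraries left out. Over all genes, 416 were called without a count filter, 19 by DESeq2, and 0 to 1 with libraries left out. Members lower in 5C at an unadjusted p under 0.05 numbered 4 in the full comparison, 5 with relative log expression scaling and with at least 10 counts in every sample (*Cdk6* added in both), 2 with library size alone, 1 with the replicate block (*Cdc20*), 1 with GC content offsets (*Cdk6*), 0 with the replicate block and GC content offsets together, and 1 to 4 with libraries left out. Members higher numbered 1 without a count filter (*Ccne2*), 1 with GC content offsets (*Aurkb*) and 0 to 3 with libraries left out. Their median log2 fold change lay between -0.032 and 0.05 with libraries left out, the highest without WT replicate 2. The cause of these shifts was not tested.

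Whether equal replicate numbers mark paired libraries is not given in the labels. Deviations from the group means correlated at -0.174, 0.202 and -0.166 for replicates 1, 2 and 3. Between libraries of unlike number they correlated at -0.1985 to 0.307. With groups of 3 libraries, such correlations cannot show whether the libraries are paired. With the replicate block, *Mcm5*, *Ccne1* and *Ccnd2* were no longer at an unadjusted p under 0.05, while their log2 fold changes were -0.238, -0.19 and -0.187, against -0.234, -0.194 and -0.192 without it.

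Members near a log2 fold change of 0 changed sign. *Pcna* was 0.0067 with library size alone, 0.005 without a count filter and 0.00031 by limma-voom. With library size alone and without a filter, *Ccnb1* was 0.011 and 0.0076, *Bub1b* 0.012 and 0.0089, and *Birc5* 0.014 and 0.011. With GC content offsets, alone and with the replicate block, *Cdk2* was 0.0049 and 0.0039, *Bub1b* 0.037 and 0.043, *Birc5* 0.011 and 0.014, and *Cenpe* -0.0098 and -0.011. With libraries left out, 19 members crossed 0. The log2 fold change ranged from -0.087 to 0.07 for *Pcna*, -0.155 to 0.028 for *Mcm2*, -0.131 to 0.015 for *Mcm3*, -0.0036 to 0.135 for *Mcm4*, -0.159 to 0.0018 for *Mcm7*, -0.096 to 0.029 for *Cdc6*, and -0.032 to 0.256 for *Cdt1*. It ranged from -0.061 to 0.059 for *Rrm1*, -0.12 to 0.0058 for *Rrm2*, -0.057 to 0.05 for *Ccnb1*, -0.024 to 0.073 for *Cdk1*, -0.061 to 0.027 for *Cdk2*, -0.031 to 0.095 for *Cdk4*, and -0.125 to 0.112 for *Cdkn2c*. It ranged from -0.049 to 0.072 for *Bub1b*, -0.048 to 0.208 for *Aurka*, -0.058 to 0.064 for *Birc5*, -0.021 to 0.111 for *Cenpa*, and -0.0086 to 0.093 for *Cenpe*. The other 24 members kept their direction in every fit. With 3 libraries a group and intervals reaching from -26.5% to 33.1% over the members, differences of a few percent were not detectable.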
